A study of Homo sapiens with 12 samples.

Results

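The genes described here make and load the peptide receptors of the major histocompatibility complex (MHC) class I pathway. The members were the 9 genes *HLA-B*, *HLA-C*, *HLA-E*, *HLA-F*, *B2M*, *TAP1*, *TAP2*, *PSMB8* and *PSMB9*, taken by symbol from the 21865 gene symbols of the expression table and not by their values. Each symbol had 1 row, and 8 of the 9 genes lie on human chromosome 6 (GRCh37), in and around the MHC, while *B2M* lies on chromosome 15. The cells were CCD-18Co, an established line of human colon myofibroblasts, which are contractile fibroblasts found beneath the gut epithelium. Cultures were exposed for 24 h to vehicle, to 100 nM 1,25(OH)2D3 (calcitriol, the active hormone form of vitamin D), to 100 ng/ml Wnt3A (a secreted ligand of the Wnt/β-catenin pathway), or to 1,25(OH)2D3 and Wnt3A together. There were 3 RNA-seq libraries per group and 12 in all, from 3 independent experiments with this 1 line, so the p-values describe the spread between experiments with CCD-18Co and not between people.

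In the class I pathway, proteasomes cut cytosolic proteins into peptides, and the transporter formed by TAP1 and TAP2 carries these into the endoplasmic reticulum. There they are loaded onto a complex of an HLA heavy chain and the light chain β2-microglobulin, which moves to the cell surface and is read by CD8+ T cells and natural killer cells. Nearly all nucleated cells express the pathway, interferons raise it, and PSMB8 and PSMB9 replace standard catalytic subunits of the proteasome to form the immunoproteasome.

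*TAP1* fell with 1,25(OH)2D3, alone and in combination with Wnt3A, and did not pass the test with Wnt3A alone. *PSMB9*, its divergently transcribed neighbour, was lower under all 3 treatments by similar amounts, all measured from the same vehicle libraries. Its calls rested on single libraries and on the test used. The fits behind these calls leave out the pairing of libraries by experiment. With that pairing as a block, edgeR called *PSMB9* under all 3 treatments. The hormone-alone calls of both genes were lost without replicate 1 of that group. *HLA-F*, the member with the fewest reads, fell with the combination, a call lost under DESeq2 and without replicate 1 or 2 of the combination. No member was called higher under any treatment. The classical heavy chains *HLA-B* and *HLA-C* passed no test, with fitted changes against vehicle of -2.48% to 3.63%. Outside the 9 members, *PSMB10*, which encodes the remaining inducible catalytic subunit of the immunoproteasome, rose with 1,25(OH)2D3 while its standard counterpart *PSMB7* fell.

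Depth was even, with 5363668 to 6261100 reads per library, and the 9 members together held 0.784% to 0.893% of them. Levels are given as CPM, counts per 1000000 reads, scaled by TMM, a method that balances library composition. The treatments registered in their labelled libraries: *CYP24A1*, the vitamin D-degrading enzyme and a direct hormone target, was at 0 to 0.665 CPM without 1,25(OH)2D3 and at 194 to 307 CPM with it, and *AXIN2*, a β-catenin target, was at 1.91 to 3.07 CPM without Wnt3A and at 16.5 to 23.6 CPM with it. The 8 myofibroblast markers summed to 22280 to 25820 CPM in every library, but single markers moved in both directions. With 1,25(OH)2D3 2 were called higher and 1 lower, with Wnt3A 1 higher, and with both 1 higher and 3 lower. Over all tested genes 14.7%, 8.29% and 24% were called in either direction. *COL1A1* averaged 5802 CPM with vehicle and 8566 CPM with 1,25(OH)2D3, and *VIM* 6863 and 4747 CPM. Markers of 3 other cell types were low. Of 10 immune markers 9 stayed under 1 CPM in every library and 4 had no read, *CD3E* and *LYZ* among them, but their sum was 15.5 to 19.0 CPM with 1,25(OH)2D3 against 8.48 to 11.8 CPM with vehicle, nearly all of it *CD14*. Of 6 epithelial markers 5 stayed under 1 CPM throughout and 3 had no read. The 4 endothelial markers, led by *VWF*, summed to 15.5 CPM in vehicle replicate 2 and to 2.12 to 5.84 CPM in the other libraries. The part of other cells in the results below was not tested, and calls given below that were lost without vehicle replicate 2 are named. Replicate 1 of 1,25(OH)2D3 stood apart in a list of 22 interferon-stimulated genes, being the lowest of all 12 libraries in 16 of them. Where a call given below for the hormone alone was lost without this library, that is named. In cultures measured in bulk, fewer cells with a transcript and less of it per cell cannot be told apart.

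The promoters of 4 members are shown because their genes behaved differently while some letters recur among them. *TAP1* and *PSMB9* fell and face away from each other, *HLA-F* fell with the combination, and *B2M* was not called. Each line is the RefSeq window of 300 bases that ends just past the start site (GRCh38.p14), written 5′ to 3′ on the gene's strand. Capitals mark the core of the interferon-stimulated response element (GAAA, any 2 bases, GAAA), bound by IRF factors, and matches to an NF-κB site, on either strand.
TAP1 (chr6:32853655-32853954, minus strand): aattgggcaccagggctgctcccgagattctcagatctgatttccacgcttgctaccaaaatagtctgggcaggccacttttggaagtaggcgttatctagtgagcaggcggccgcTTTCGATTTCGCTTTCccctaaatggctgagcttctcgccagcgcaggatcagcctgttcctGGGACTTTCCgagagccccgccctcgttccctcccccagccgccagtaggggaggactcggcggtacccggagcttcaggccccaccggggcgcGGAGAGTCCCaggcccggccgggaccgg
PSMB9 (chr6:32853942-32854241, plus strand): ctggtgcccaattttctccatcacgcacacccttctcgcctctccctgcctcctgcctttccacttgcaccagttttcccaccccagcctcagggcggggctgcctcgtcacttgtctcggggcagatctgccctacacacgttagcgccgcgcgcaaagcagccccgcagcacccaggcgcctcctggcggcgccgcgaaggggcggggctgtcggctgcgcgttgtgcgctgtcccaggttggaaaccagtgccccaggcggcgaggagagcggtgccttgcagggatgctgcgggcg
B2M (chr15:44711267-44711566, plus strand): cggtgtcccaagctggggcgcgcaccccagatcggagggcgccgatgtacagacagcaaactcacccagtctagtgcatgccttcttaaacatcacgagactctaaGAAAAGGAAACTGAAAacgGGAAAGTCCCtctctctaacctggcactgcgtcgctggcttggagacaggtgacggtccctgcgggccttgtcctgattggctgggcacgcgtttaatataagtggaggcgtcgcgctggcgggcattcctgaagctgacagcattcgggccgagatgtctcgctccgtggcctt
HLA-F (chr6:29723184-29723483, plus strand): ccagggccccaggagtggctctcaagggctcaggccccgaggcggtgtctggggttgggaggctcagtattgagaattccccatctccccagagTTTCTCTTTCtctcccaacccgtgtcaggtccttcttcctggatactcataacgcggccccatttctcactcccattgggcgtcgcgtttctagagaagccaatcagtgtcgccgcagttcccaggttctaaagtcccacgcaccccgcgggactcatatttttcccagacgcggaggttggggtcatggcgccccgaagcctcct

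Of the 9 members, 8 matched this promoter table. The response element core was in the windows of *TAP1* and *B2M* (2 overlapping matches each), *TAP2* and *HLA-F* (1 each), and in 3.57% of the 35116 windows of the table. The NF-κB pattern was in the windows of *TAP1*, *B2M*, *HLA-B* and *HLA-C*, against 9.08% of all windows. The windows of *PSMB9* and *PSMB8* held neither. The letters TTCNNNGAA of the gamma-activated site (7.66% of windows), CTTTGAT, bound by TCF/LEF factors (2.62%), and a vitamin D response element of the DR3 type (0.074%) matched in none of the 8. Both strands were searched, and a match marks letters and not a bound factor. In GRCh37 the rows of *TAP1* (chr6:32812986-32821748) and *PSMB9* (chr6:32821938-32827628) are separated by 189 bases with 69.8% G or C. The annotated *TAP1* transcript starts inside its row, at 32821481, so this gap is shorter than the stretch between the start sites of these genes. In that stretch, and outside the *PSMB9* window, lie the response element matches of *TAP1*. The windows printed above overlap by 13 bases.

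In vehicle, the light chain was by far the most abundant transcript of the pathway per length. Per kilobase of the annotated transcript, *B2M* stood at 5204 ± 110 CPM (SD, n = 3), *HLA-C* at 972 ± 60.5, *HLA-B* at 702 ± 61.9 and the less polymorphic heavy chain *HLA-E* at 151 ± 3.61. The immunoproteasome subunits *PSMB8* (80.2 ± 4.997) and *PSMB9* (54.1 ± 3.20) and the transporter genes *TAP1* (53.9 ± 2.71) and *TAP2* (42.1 ± 2.79) followed. *HLA-F*, a heavy chain found mostly inside resting cells, was last at 10.3 ± 0.149 CPM per kilobase. *PSMB9* and *TAP1* do not differ in that order beyond their spread, and the other neighbours have intervals of 1 SD that do not meet. Levels of the heavy chains depend on how reads from related genes were assigned: of the 40-base stretches of the transcript, 14.24% in *HLA-C*, 11.46% in *HLA-E*, 7.886% in *HLA-B* and 5.276% in *HLA-F* occur elsewhere in the genome, and none in *B2M*, *PSMB8* or *PSMB9*.

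**Figure D1:**
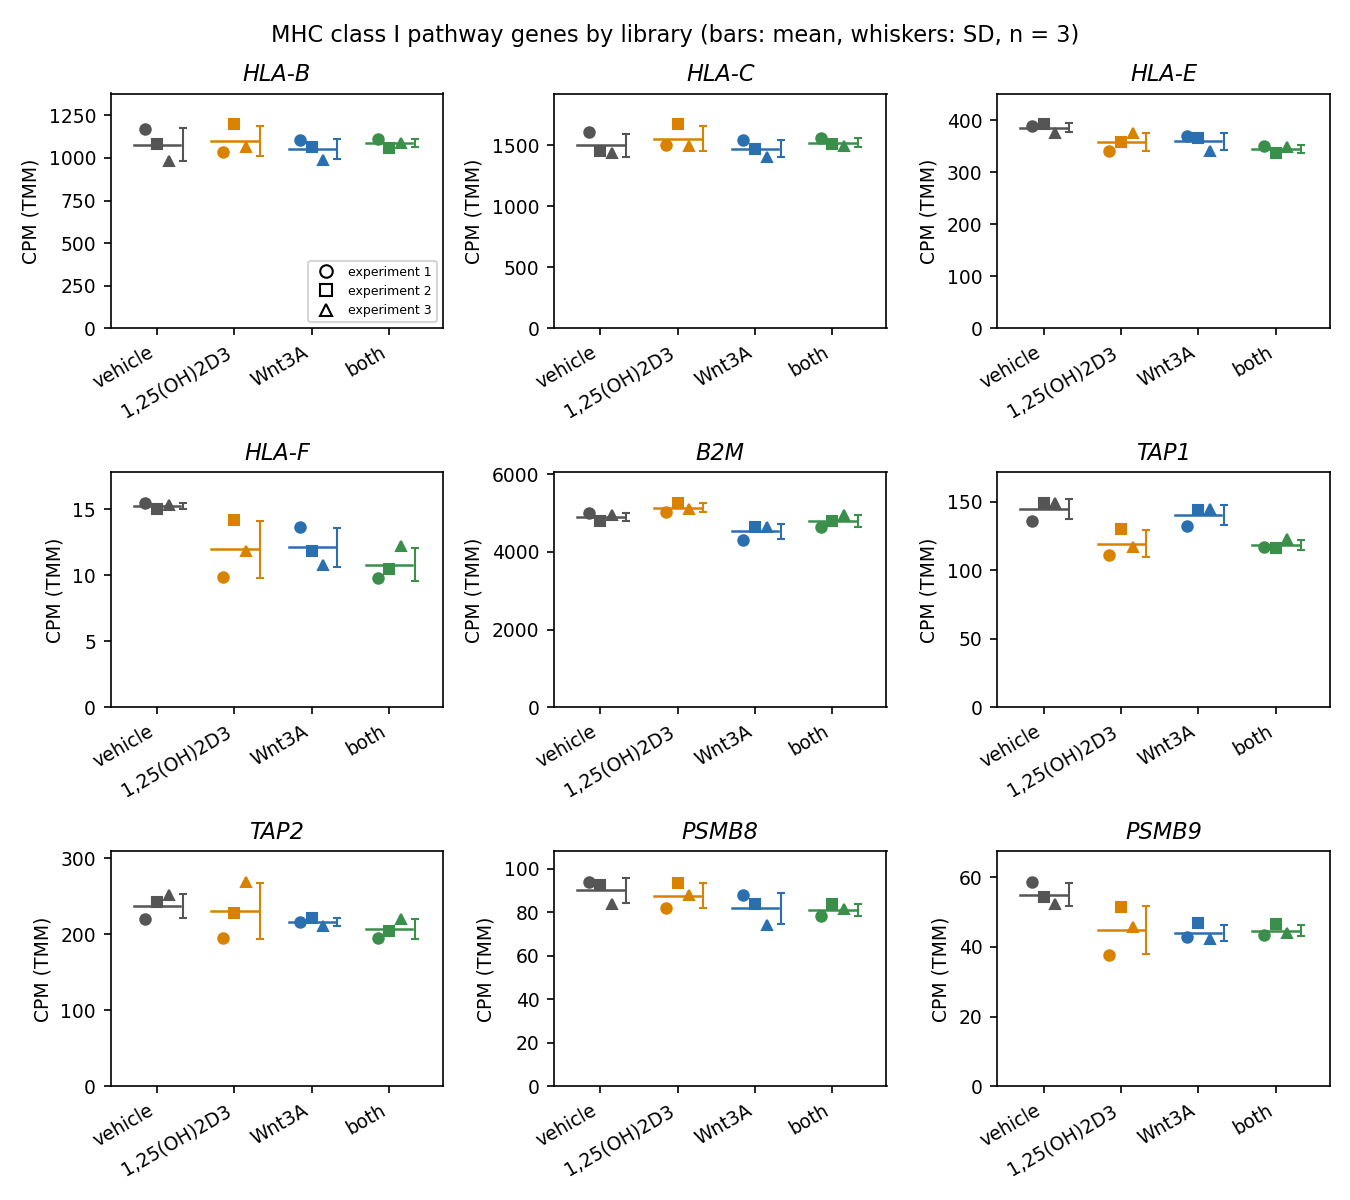
Level of each of the 9 members in CPM (y axis, from 0) in the 12 libraries by group (x axis), with symbols for the 3 experiments, horizontal bars at the mean and whiskers of 1 SD. *TAP1* is at 111 to 130 CPM with 1,25(OH)2D3 and 116 to 123 CPM with both agents, under the 136 to 149 CPM of vehicle, while *HLA-B* and *HLA-C* overlap in every group.

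The subunits of the peptide transporter differed in their calls. *TAP1*, whose product pairs with TAP2 to form the transporter, was at 136, 149 and 149 CPM with vehicle in replicates 1 to 3. It was at 111, 130 and 117 CPM with 1,25(OH)2D3, at 132, 144 and 145 CPM with Wnt3A, and at 117, 116 and 123 CPM with both. All 6 libraries with the hormone lay below all 6 without it. With 1,25(OH)2D3 *TAP1* fell, with a log2 change of -0.28 (SE 0.071, edgeR adjusted p = 0.00793), and the combination stood 0.29 below vehicle (log2 change -0.29, SE 0.071, adjusted p = 0.00373) and 0.24 below Wnt3A alone (log2 change -0.24, SE 0.071, adjusted p = 0.0218). With Wnt3A alone the change was -0.04 (95% interval -0.19 to 0.10, adjusted p = 0.827), and the combination differed from 1,25(OH)2D3 by -0.01 (interval -0.16 to 0.14). In the order of levels, vehicle and Wnt3A did not differ beyond their spread, nor did 1,25(OH)2D3 and the combination. The call for 1,25(OH)2D3 was lost without its replicate 1 (-0.23, adjusted p = 0.0571), and that against Wnt3A without replicate 1 or 2 of the combination or 2 or 3 of Wnt3A (-0.22 to -0.21, adjusted p = 0.0892 to 0.102). Without vehicle replicate 2 the changes were -0.27 (adjusted p = 0.028) for the hormone and -0.27 (adjusted p = 0.018) for the combination.

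*TAP2*, which encodes the partner subunit, was at 220, 242 and 251 CPM with vehicle, at 195, 227 and 268 CPM with 1,25(OH)2D3, at 216, 221 and 210 CPM with Wnt3A, and at 194, 204 and 220 CPM with both. The hormone libraries spanned the whole vehicle range. *TAP2* passed no test, with the largest distance under the combination (log2 change -0.20, SE 0.085, adjusted p = 0.088). With the replicate number as a block, which removes differences shared by libraries of the same number, that change was called (-0.20, adjusted p = 0.00425). The same edgeR fit called *TAP1* with 1,25(OH)2D3 (adjusted p = 0.000204) and with both agents (adjusted p = 7.12e-05). Reads of *TAP1* per read of *TAP2* were 0.610 ± 0.0136 with vehicle, 0.526 ± 0.0771 with 1,25(OH)2D3, 0.652 ± 0.0384 with Wnt3A and 0.576 ± 0.0226 with both (SD, n = 3). The vehicle and hormone ratios did not overlap.

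An uncharacterised locus, *LOC100507463*, overlaps both *TAP1* (1292 bases) and *PSMB8* (850 bases) and held 160 reads per library on average. Its log2 change was -0.43 with 1,25(OH)2D3 (SE 0.11, adjusted p = 0.00987), and -0.37 with both (SE 0.11, adjusted p = 0.0155), while Wnt3A alone gave -0.23 without a call (adjusted p = 0.264). The hormone call was lost without replicate 1 of the hormone (-0.35, adjusted p = 0.0688) and that of the combination without vehicle replicate 3 (-0.29, adjusted p = 0.0781) or replicate 1 of the combination (-0.35, adjusted p = 0.0505). How shared stretches were counted is not given in the sources used here, so reads of the locus and of its neighbours cannot be told apart.

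**Figure D2:**
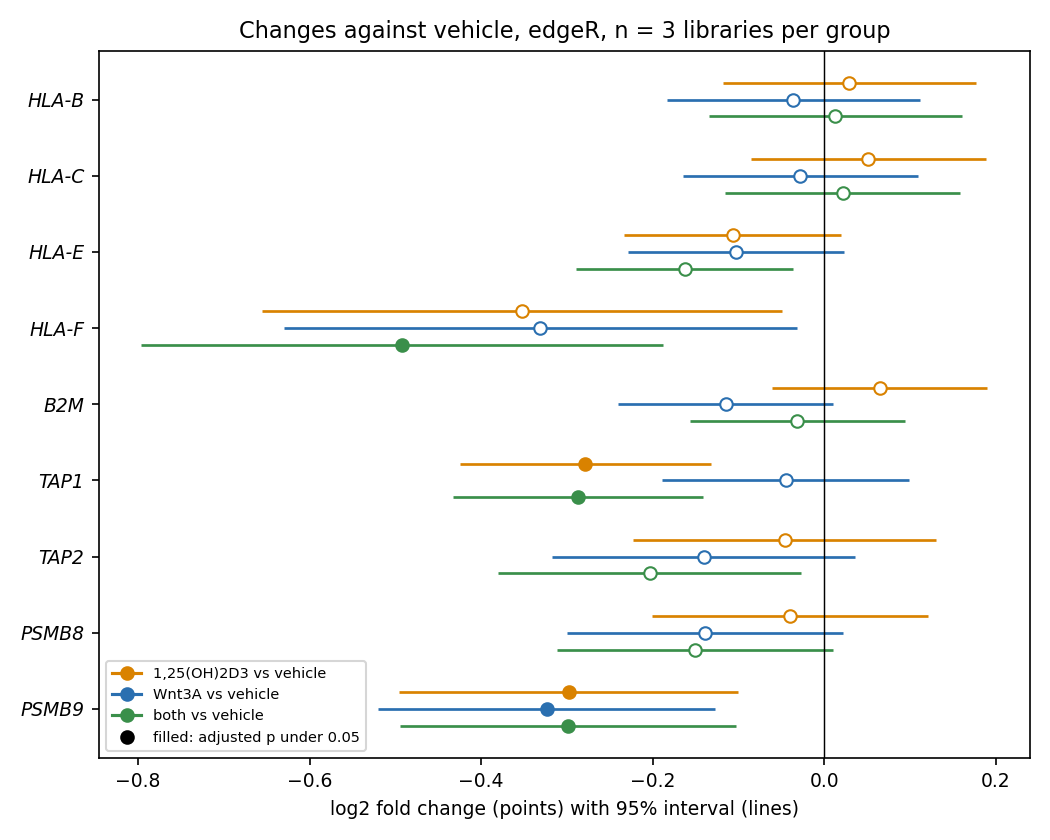
Log2 fold change (x axis) of the 9 members (y axis) for each treatment against vehicle, with points at the edgeR estimate, lines for the 95% interval and filled points where the adjusted p is under 0.05. The filled points are *TAP1* (1,25(OH)2D3 and both), *PSMB9* (all 3) and *HLA-F* (both), and all lie between -0.49 and -0.28.

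The immunoproteasome subunit *PSMB9*, a catalytic β subunit (β1i), was highest in the vehicle libraries, at 58.6, 54.2 and 52.2 CPM. It was at 37.6, 51.3 and 45.6 CPM with 1,25(OH)2D3, at 42.9, 46.7 and 42.4 CPM with Wnt3A, and at 43.5, 46.5 and 43.9 CPM with both. Every treated library was below every vehicle library. The log2 change was -0.30 with 1,25(OH)2D3 (SE 0.096, adjusted p = 0.037), -0.32 with Wnt3A (SE 0.095, adjusted p = 0.0325) and -0.30 with both (SE 0.095, adjusted p = 0.0228). These changes share the vehicle libraries and are not independent of each other. The treated groups differed little from each other: the combination was 0.02 above Wnt3A (interval -0.18 to 0.23) and at 0.00 from 1,25(OH)2D3 (interval -0.20 to 0.20). The sum of the single changes, each taken from the same vehicle libraries, was -0.62 against -0.30 measured for the combination. This departure from additivity, 0.32 (SE 0.14), had an unadjusted p of 0.0269 and an adjusted p of 1 in edgeR, and an adjusted p of 0.624 with the block. No gene of the 12216 tested was called for the interaction, with 354 at an unadjusted p under 0.05, 0 called by DESeq2 and 18 called by edgeR with the block.

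The *PSMB9* calls depended on the test used and on single libraries. DESeq2 on all 12 libraries called *PSMB9* with both agents (adjusted p = 0.049). It did not call *PSMB9* with 1,25(OH)2D3 (-0.30, adjusted p = 0.0801) or Wnt3A (-0.33, adjusted p = 0.0674). DESeq2 on each pair of groups alone called it with none of the treatments (adjusted p = 0.19, 0.111 and 0.068 for 1,25(OH)2D3, Wnt3A and both). For 1,25(OH)2D3 the call was lost without its replicate 1 (-0.18, adjusted p = 0.24) or 3 (-0.32, adjusted p = 0.0632), and without vehicle replicate 1 (-0.25, adjusted p = 0.12) or 2 (-0.32, adjusted p = 0.0586). For Wnt3A it was lost without its replicate 1 (-0.31, adjusted p = 0.109) or 3 (-0.30, adjusted p = 0.118), and without vehicle replicate 1 (-0.28, adjusted p = 0.111) or 2 (-0.34, adjusted p = 0.0699). For the combination it was lost without its replicate 1 (-0.27, adjusted p = 0.0782) or 3 (-0.28, adjusted p = 0.0801), and without vehicle replicate 1 (-0.25, adjusted p = 0.0815). The direction was downward in each of these fits, none of which used the replicate block. With that block edgeR called *PSMB9* under all 3 treatments (adjusted p = 0.00551, 0.00353 and 0.00316 for 1,25(OH)2D3, Wnt3A and both). DESeq2 with the block did not call it with 1,25(OH)2D3 (adjusted p = 0.0578). *PSMB9* had 220 to 339 reads per library, and counting alone gives a coefficient of variation of about 6.03%.

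*PSMB8*, the β5i subunit, was at 93.9, 92.8 and 83.7 CPM with vehicle and at 81.8, 93.4 and 88.0 CPM with 1,25(OH)2D3. It was at 87.8, 83.8 and 74.0 CPM with Wnt3A and at 78.4, 83.7 and 81.4 CPM with both. The groups overlapped, and the largest distance from vehicle was that of the combination (log2 change -0.15, interval -0.31 to 0.01, adjusted p = 0.169). Reads of *PSMB9* per read of *PSMB8* were 0.611 ± 0.0229 with vehicle, 0.509 ± 0.0458 with 1,25(OH)2D3, 0.540 ± 0.0454 with Wnt3A and 0.550 ± 0.00903 with both. Each treated range lay below the vehicle range.

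The other genes of the proteasome list moved in both directions. *PSMB10*, which encodes β2i and lies outside the MHC, was at 53.4, 46.9 and 40.9 CPM with vehicle, at 65.9, 62.8 and 64.6 CPM with 1,25(OH)2D3, at 43.0, 39.2 and 34.1 CPM with Wnt3A and at 58.7, 60.8 and 56.8 CPM with both. All 6 hormone libraries were above all 6 others. It rose with 1,25(OH)2D3 (log2 change 0.46, SE 0.094, adjusted p = 0.00118), and the combination was higher than vehicle (0.32, SE 0.094, adjusted p = 0.0133) and than Wnt3A (0.60, SE 0.097, adjusted p = 8.21e-05). *PSMB7*, the standard β2 subunit that *PSMB10* replaces, went from 46.6, 41.8 and 42.1 CPM with vehicle to 32.4, 31.9 and 33.9 CPM with 1,25(OH)2D3 and to 32.8, 29.5 and 28.5 CPM with both, a log2 change of -0.41 for the hormone (SE 0.091, adjusted p = 0.00259) and of -0.52 for the combination (SE 0.091, adjusted p = 0.000107). The combination call for *PSMB10* was lost without replicate 2 of the combination (0.29, adjusted p = 0.065) or vehicle replicate 3 (0.23, adjusted p = 0.0883).

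The ratio of each inducible subunit to the one it replaces differed between pairs. Reads of *PSMB10* per read of *PSMB7* were 1.08 ± 0.0941 with vehicle and 1.00 ± 0.0864 with Wnt3A, and 1.97 ± 0.0630 with 1,25(OH)2D3 and 1.95 ± 0.142 with both (SD, n = 3). The 6 hormone libraries did not overlap the other 6. The ratio of *PSMB9* to *PSMB6*, the standard β1 subunit, was 0.705 ± 0.0314, 0.692 ± 0.132, 0.611 ± 0.0724 and 0.685 ± 0.0522 in vehicle, 1,25(OH)2D3, Wnt3A and both, and the ranges of vehicle and 1,25(OH)2D3 overlapped. *PSMB6*, singled out after its values were seen because it forms this pair, was also lower with 1,25(OH)2D3 (log2 change -0.27, SE 0.087, adjusted p = 0.0396). That call was lost without vehicle replicate 1 (-0.18, adjusted p = 0.206) and without replicate 1 (-0.24, adjusted p = 0.125) or 2 (-0.22, adjusted p = 0.168) of the hormone. The ratio of *PSMB8* to *PSMB5* was 0.508 ± 0.0350, 0.510 ± 0.0227, 0.474 ± 0.0428 and 0.506 ± 0.0348 in the same order, with overlapping groups.

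**Figure D3:**
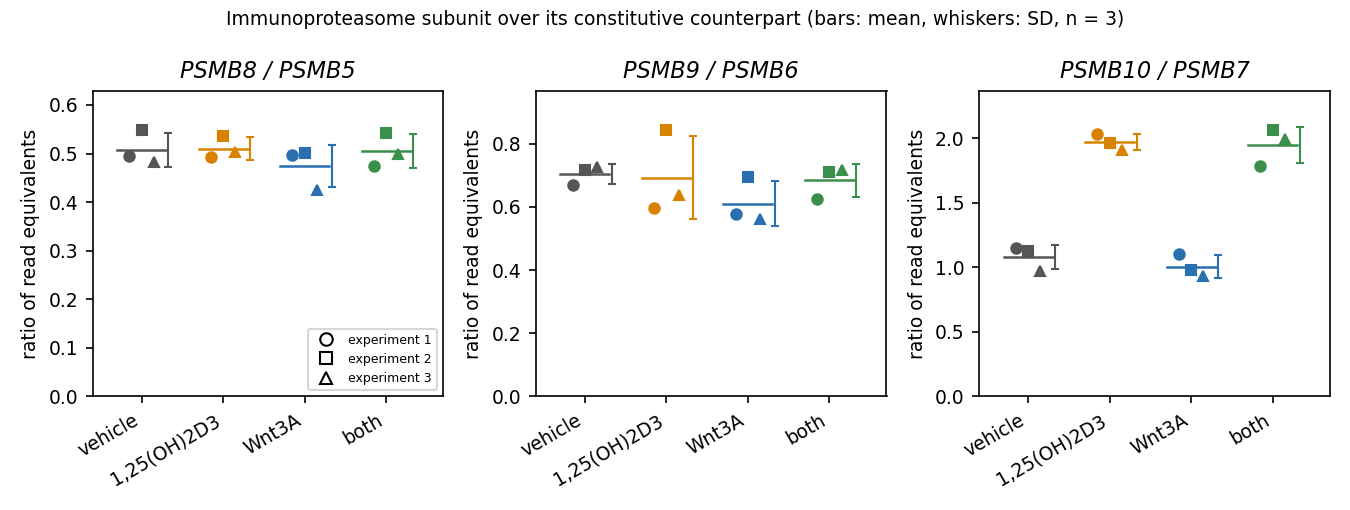
Reads of an immunoproteasome subunit per read of the standard subunit it replaces (y axis, from 0) by group (x axis), with symbols for the 3 experiments, bars at the mean and whiskers of 1 SD. Of the 3 pairs, only the *PSMB10* to *PSMB7* ratio separates the libraries with 1,25(OH)2D3 (1.97 and 1.95 on average) from those without (1.08 and 1.00), while the other pairs overlap.

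Among the heavy chains, *HLA-F* had the lowest reads and the largest changes. It was at 15.5, 15.04 and 15.3 CPM with vehicle, at 9.90, 14.2 and 11.9 CPM with 1,25(OH)2D3, at 13.7, 11.9 and 10.8 CPM with Wnt3A and at 9.78, 10.48 and 12.2 CPM with both. Every treated library was below every vehicle library. With both agents *HLA-F* fell, with a log2 change of -0.49 (SE 0.15, adjusted p = 0.016), and the single agents did not pass (1,25(OH)2D3 -0.35, interval -0.66 to -0.05, adjusted p = 0.114, and Wnt3A -0.33, interval -0.63 to -0.03, adjusted p = 0.207). The libraries held 53 to 94 reads of *HLA-F*, and counting alone gives a coefficient of variation of about 11.7%, whereas the vehicle libraries varied by 1.44%. The call was lost without replicate 1 (-0.42, adjusted p = 0.0745) or 2 (-0.47, adjusted p = 0.0599) of the combination, and under DESeq2 (adjusted p = 0.0598). With the replicate block it was kept in edgeR (adjusted p = 0.00566) and lost in DESeq2 (adjusted p = 0.0705). An overlapping locus, *LOC285830*, held 16.9 reads per library on average and was not called with both agents (log2 change 0.59, SE 0.28, adjusted p = 0.124).

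*HLA-E*, whose product presents leader peptides of other heavy chains to natural killer cell receptors, was at 389, 392 and 375 CPM with vehicle, at 340, 358 and 376 CPM with 1,25(OH)2D3, at 370, 366 and 341 CPM with Wnt3A and at 350, 336 and 348 CPM with both. The Wnt3A and combination libraries lay below all vehicle libraries. The combination narrowly missed the threshold (log2 change -0.16, SE 0.061, adjusted p = 0.056) and was called with the replicate block (-0.16, adjusted p = 0.00785), under DESeq2 (-0.17, adjusted p = 0.0431) and with 2 other scalings (adjusted p = 0.0442 and 0.0456). With 1,25(OH)2D3 the change was -0.11 (interval -0.23 to 0.02) and with Wnt3A -0.10 (interval -0.23 to 0.02).

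The classical heavy chains passed no test. *HLA-B* averaged 1078 ± 95.003 CPM with vehicle, 1100 ± 86.1 with 1,25(OH)2D3, 1051 ± 59.8 with Wnt3A and 1088 ± 26.2 with both (SD, n = 3). *HLA-C* averaged 1499 ± 93.4, 1554 ± 103, 1471 ± 70.4 and 1522 ± 35.0 CPM in the same order. The 95% intervals of their changes against vehicle lay within -0.18 to 0.19 on the log2 scale, which does not show equality but bounds a difference. *HLA-C* was above *HLA-B* in every library, and reads of *HLA-B* per read of *HLA-C* averaged 0.708 to 0.718 in the 4 groups.

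*B2M*, which encodes the light chain shared by all class I molecules, was at 4991, 4791 and 4940 CPM with vehicle, at 5025, 5257 and 5118 CPM with 1,25(OH)2D3, at 4313, 4640 and 4646 CPM with Wnt3A and at 4645, 4809 and 4954 CPM with both. The hormone libraries were all above the vehicle libraries and the Wnt3A libraries all below them, by small margins. Its log2 changes were 0.06 with 1,25(OH)2D3 (interval -0.06 to 0.19, adjusted p = 0.541), -0.11 with Wnt3A (interval -0.24 to 0.01, adjusted p = 0.342) and -0.03 with both (interval -0.16 to 0.09). With the replicate block the Wnt3A change was called (-0.12, adjusted p = 0.047). In the order of levels, from 1,25(OH)2D3 through vehicle and the combination to Wnt3A, no neighbouring groups differed beyond the test. Reads of *HLA-E* per read of *B2M* were 0.0786 ± 0.00302 with vehicle and 0.0698 ± 0.00318 with 1,25(OH)2D3, without overlap.

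*B2M* also serves as a reference for quantitative PCR, and the study used it with others for its patient-derived fibroblasts, so its level was set beside those of *RPLP0* (a ribosomal protein) and *GAPDH* (a glycolytic enzyme). *RPLP0* averaged 392 ± 37.3 CPM with vehicle and 333 ± 31.2 CPM with both agents, and was lower there (log2 change -0.23, SE 0.082, adjusted p = 0.0396). *GAPDH* averaged 2727 ± 277 and 2361 ± 171 CPM and was also lower (-0.21, SE 0.075, adjusted p = 0.0433). Both calls were lost in fits that left out 1 library, in 7 of 12 for *GAPDH* (-0.23 to -0.13, adjusted p = 0.0516 to 0.235) and in 4 of 12 for *RPLP0* (-0.24 to -0.15, adjusted p = 0.0585 to 0.233), vehicle replicate 1 and replicates 2 and 3 of the combination in each. The *GAPDH* call was among others lost without vehicle replicate 2 (-0.23, adjusted p = 0.067). With 1,25(OH)2D3 alone *RPLP0* averaged 345 ± 35.2 CPM and *GAPDH* 2456 ± 109 CPM, below vehicle without a call. The ratios that follow therefore move with their divisors as well as with *B2M*. Reads of *B2M* per read of *RPLP0* were 12.6 ± 1.01 with vehicle, 14.99 ± 1.76 with 1,25(OH)2D3, 12.5 ± 1.18 with Wnt3A and 14.5 ± 1.84 with both, and the groups overlapped. Within experiments, however, the ratio was above the vehicle library of the same number in 3 of 3 pairs with 1,25(OH)2D3 (by 1.56 to 3.65) and in 3 of 3 with both (by 1.29 to 2.97), and in 1 of 3 with Wnt3A. For *GAPDH* as the divisor the ratios were 1.81 ± 0.172, 2.09 ± 0.130, 1.74 ± 0.173 and 2.04 ± 0.197, again above vehicle in 3 of 3 pairs with the hormone, 3 of 3 with both and 1 of 3 with Wnt3A.

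**Figure D4:**
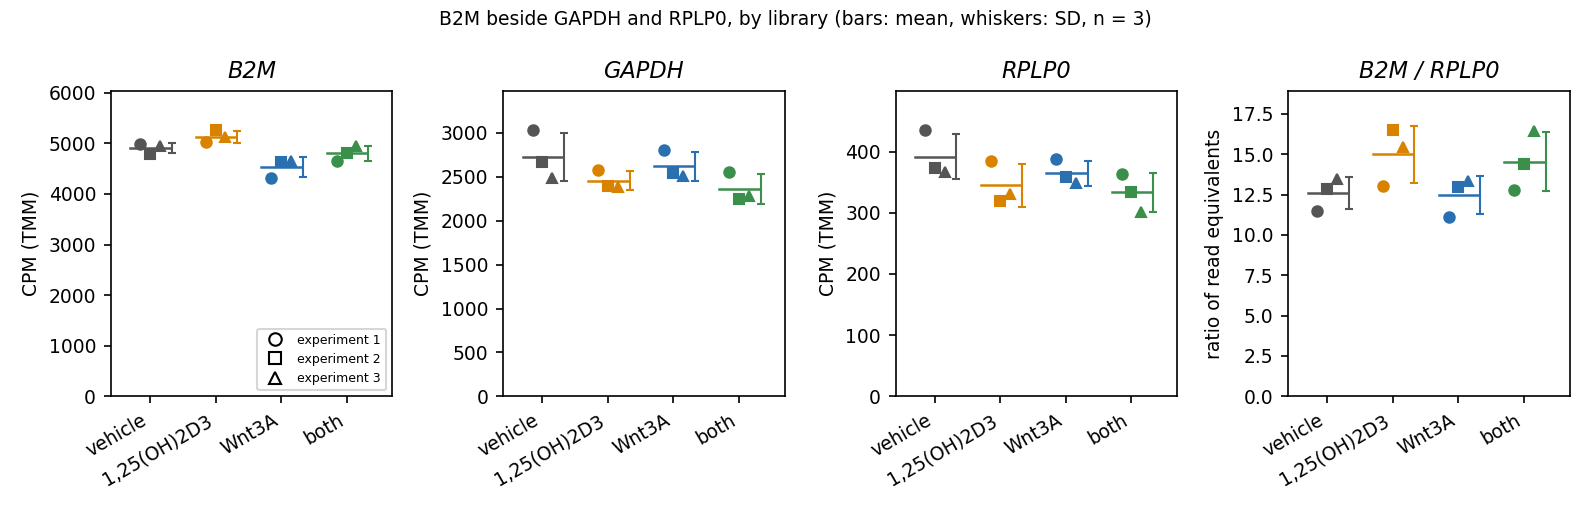
Levels of *B2M*, *GAPDH* and *RPLP0* in CPM and reads of *B2M* per read of *RPLP0* (y axes, from 0) by group (x axis), with symbols for the 3 experiments, bars at the mean and whiskers of 1 SD. *B2M* stays between 4313 and 5257 CPM, and its ratio to *RPLP0* averages 12.6 with vehicle and 14.99 with 1,25(OH)2D3, where each library is above the vehicle library of its experiment.

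Counted over the members, 2 of 9 were called lower with 1,25(OH)2D3, where 6.12% of all tested genes were called lower, 8.54% higher and 14.7% in either direction. With Wnt3A 1 of 9 was called lower (3.33% of all genes lower, 4.96% higher, 8.29% in either direction), and with both 3 of 9 (10.7% lower, 13.3% higher, 24% in either direction). Against Wnt3A the combination had 1 of 9 lower (5.9% of all genes lower, 7.54% higher, 13.4% in either direction) and against 1,25(OH)2D3 it had 0 of 9 (4.03% lower, 5.2% higher, 9.23% in either direction), where 0 of 9 also passed by DESeq2 and none had an unadjusted p under 0.05. With the replicate block the counts against vehicle were 2, 2 and 5 of 9, with 24.2%, 13.5% and 33.4% of all genes called. The test for any difference among the 4 groups called *TAP1* (adjusted p = 0.00203) and *PSMB9* (adjusted p = 0.0228), 2 of 9 against 29.6% of all genes, and 6 of 9 with the block against 42.6%. Without vehicle replicate 1 or 2 that test called *TAP1* alone. The members' median log2 change was -0.05 with 1,25(OH)2D3, -0.11 with Wnt3A and -0.16 with both, beside 0.00 for all tested genes in each comparison. Without replicate 1 of 1,25(OH)2D3, 0 of 9 members were called with the hormone alone and their median was 0.0096. These comparisons share their vehicle libraries.

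Counted by whole groups that do not overlap, more members stood apart. The 3 hormone libraries lay below all vehicle libraries for *TAP1*, *PSMB9* and *HLA-F* and above them for *B2M* (3 lower and 1 higher of 9, against 13.7% lower and 15% higher over all genes). With Wnt3A 4 members lay below vehicle, namely *HLA-E*, *HLA-F*, *B2M* and *PSMB9* (10.1% of all genes), and with both 4, namely *HLA-E*, *HLA-F*, *TAP1* and *PSMB9* (17.7% lower and 19.8% higher over all genes). The combination lay below Wnt3A for *TAP1* (16% of all genes) and below 1,25(OH)2D3 for *B2M* (12.5%). For the separations above of all hormone libraries from all others, or of all treated libraries from vehicle, the share of all genes was not counted.

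The peptide-loading list, chaperones and trimming enzymes of the endoplasmic reticulum, had 10 tested genes. With 1,25(OH)2D3 1 was higher and 0 lower, with Wnt3A none was called, and with both 2 were lower, with medians of -0.07, -0.09 and -0.12. Over all tested genes 14.7%, 8.29% and 24% were called in either direction. *TAPBP* (tapasin, which bridges the transporter and the heavy chain) went from 148, 143 and 156 CPM with vehicle to 117, 123 and 123 CPM with both, with a log2 change of -0.30 (SE 0.066, adjusted p = 0.00122). *CALR*, the chaperone calreticulin, was lower with both (-0.27, SE 0.085, adjusted p = 0.0217), a call lost without replicate 1 (-0.22, adjusted p = 0.111) or 2 (-0.23, adjusted p = 0.105) of the combination or vehicle replicate 3 (-0.22, adjusted p = 0.0777). *ERAP1*, an aminopeptidase that trims peptides to length, was higher with 1,25(OH)2D3 (0.23, SE 0.064, adjusted p = 0.0177), a call lost without replicate 3 of the hormone (0.19, adjusted p = 0.0885) or vehicle replicate 1 (0.18, adjusted p = 0.074) or 2 (0.21, adjusted p = 0.066).

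The proteasome list beyond the members had 8 tested genes, of which 1 was higher and 2 lower with 1,25(OH)2D3, 1 lower with Wnt3A, and 1 higher and 4 lower with both (medians -0.10, -0.14 and -0.20). Among all tested genes 14.7%, 8.29% and 24% were called in either direction. *POMP*, a proteasome assembly factor, was lower with Wnt3A (-0.28, SE 0.073, adjusted p = 0.0134) and with both (-0.39, SE 0.073, adjusted p = 0.000273), the first call being lost without Wnt3A replicate 1 (-0.26, adjusted p = 0.067) or vehicle replicate 1 (-0.24, adjusted p = 0.0524). *PSME2*, a subunit of the PA28 activator, was lower with both (-0.27, SE 0.069, adjusted p = 0.0059). Of 6 cytosolic peptidases only *THOP1*, a peptidase that degrades class I peptides, was called in comparisons against vehicle. It went from 46.3, 42.6 and 48.4 CPM with vehicle to 33.1, 32.7 and 36.0 CPM with 1,25(OH)2D3 (-0.43, SE 0.091, adjusted p = 0.0016) and was lower with both (-0.40, SE 0.090, adjusted p = 0.00163).

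Few transcription factors of the pathway were called, and in both directions. Of 17 tested regulators, 1 was higher with 1,25(OH)2D3, 1 lower with Wnt3A and 1 higher with both (medians -0.06, -0.02 and 0.00). Beside these stand 8.54% of all tested genes called higher with 1,25(OH)2D3, 3.33% lower with Wnt3A and 13.3% higher with both. *IRF1*, an interferon-induced activator of class I genes, was at 119, 112 and 109 CPM with vehicle, at 154, 146 and 168 CPM with 1,25(OH)2D3, at 93.2, 88.3 and 92.6 CPM with Wnt3A and at 119, 117 and 122 CPM with both. It rose with 1,25(OH)2D3 (0.46, SE 0.068, adjusted p = 2.04e-05) and was lower with Wnt3A (-0.31, SE 0.070, adjusted p = 0.0043), and the combination lay above Wnt3A (0.38, adjusted p = 0.000374) and below 1,25(OH)2D3 (-0.39, adjusted p = 0.000252). *RFX5*, a factor that binds class I and class II promoters, was higher with both (0.35, SE 0.11, adjusted p = 0.0214), a call lost without replicate 2 of the combination (0.25, adjusted p = 0.16) or vehicle replicate 1 (0.21, adjusted p = 0.147). *NLRC5*, the class I transactivator, was not called and averaged 43.1 ± 5.31 CPM with vehicle and 48.9 ± 5.58 CPM with 1,25(OH)2D3.

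**Figure D5:**
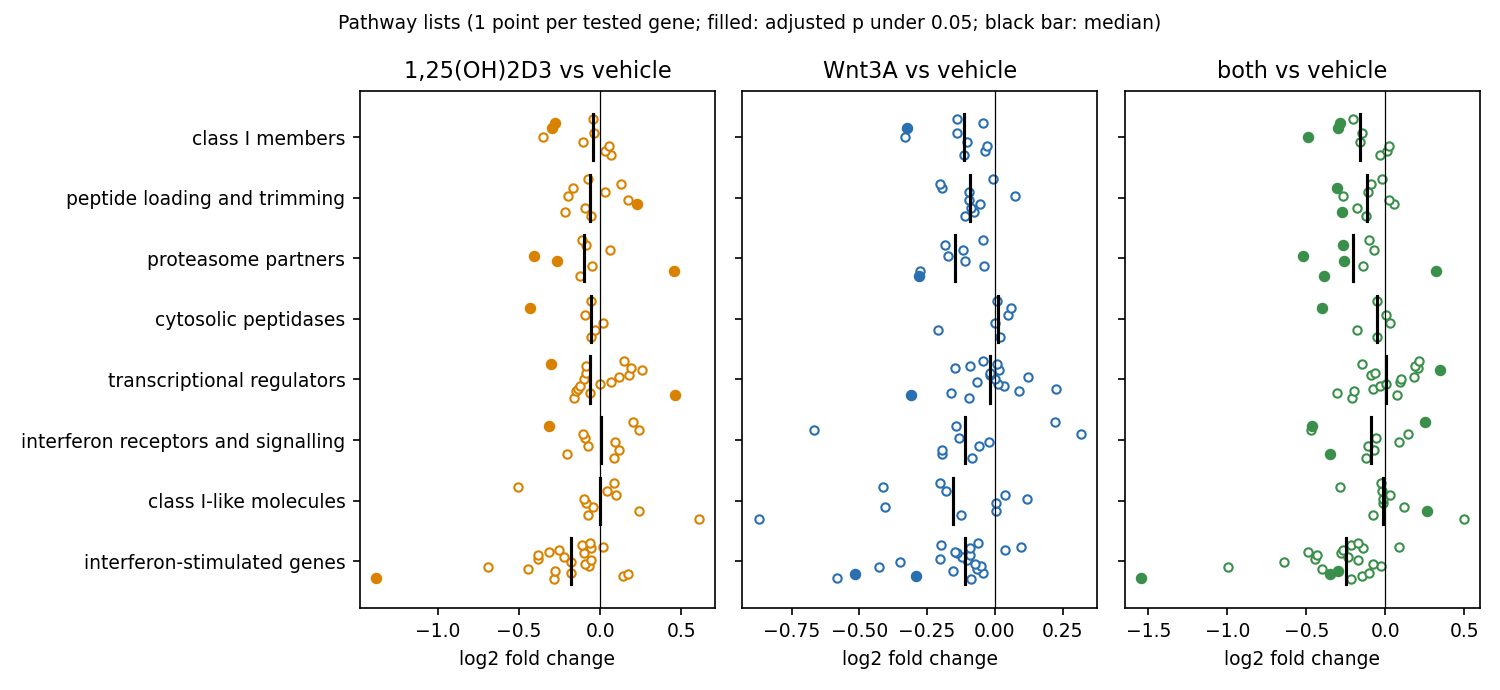
Log2 fold change (x axis) of every tested gene of 8 lists (y axis) for each treatment against vehicle, 1 point per gene, filled where the adjusted p is under 0.05, with a black bar at the list's median. In the list of interferon-stimulated genes 19, 20 and 21 of 22 points lie below 0, but only 1, 2 and 3 are filled. Over all tested genes 6.12%, 3.33% and 10.7% were called lower. Without replicate 1 of 1,25(OH)2D3 11 of 22 points lie below 0 with the hormone.

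Transcripts of *IFNG* and *IFNB1*, the only interferon genes examined, were at or near the floor. *IFNG* had 0 reads in the 12 libraries, which allows up to 3 reads or 0.0428 CPM over all of them (counting error only), and *IFNB1* had 1 read. Of 10 tested receptor and signalling genes 1 was lower with 1,25(OH)2D3, none was called with Wnt3A, and 1 was higher and 2 lower with both (medians 0.00, -0.11 and -0.09). The shares of all tested genes called in either direction were 14.7%, 8.29% and 24%. *SOCS3*, a feedback inhibitor of cytokine signalling, was lower with both (-0.46, SE 0.10, adjusted p = 0.00137) and with 1,25(OH)2D3 (-0.31, SE 0.10, adjusted p = 0.0384), the second call being lost without replicate 1 (-0.23, adjusted p = 0.192) or 3 (-0.34, adjusted p = 0.0651) of the hormone or vehicle replicate 1 (-0.25, adjusted p = 0.142) or 2 (-0.29, adjusted p = 0.106). *TYK2*, a kinase of the type I interferon receptor, was higher with both (0.25, SE 0.073, adjusted p = 0.013), which was lost without vehicle replicate 1 (0.19, adjusted p = 0.0675). *IFNAR2*, a chain of that receptor, was lower with both (-0.35, SE 0.12, adjusted p = 0.0357), which was lost without replicate 2 (-0.33, adjusted p = 0.112) or 3 (-0.25, adjusted p = 0.202) of the combination or vehicle replicate 1 (-0.35, adjusted p = 0.0635) or 2 (-0.32, adjusted p = 0.104). Among 22 interferon-stimulated genes 0 were higher under any treatment, and 1 was lower with 1,25(OH)2D3, 2 with Wnt3A and 3 with both. Beside these, 6.12%, 3.33% and 10.7% of all tested genes were called lower. Estimates were below 0 for 19, 20 and 21 of the 22 (medians -0.18, -0.11 and -0.25). The tally with the hormone alone rested on its replicate 1, which was below all vehicle libraries in 20 of the 22 genes, against 6 and 5 for replicates 2 and 3. Without that library 11 of 22 estimates were below 0 (median -0.0028), with 1 gene still called lower, and without vehicle replicate 3 there were 15 (median -0.09). With Wnt3A, 12 of 22 were below 0 without vehicle replicate 3 (median -0.01), 17 without Wnt3A replicate 1 (median -0.06) and 22 without vehicle replicate 1 (median -0.22). With both, 18 to 22 of 22 were below 0 whichever library was left out (medians -0.33 to -0.16), and the number called lower was 2 to 8, with 8 reached without replicate 1 of the hormone and 5 without vehicle replicate 1.

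*CXCL10*, an interferon-induced chemokine that attracts T cells, had the largest fitted changes of this list. It was at 10.1, 9.60 and 15.8 CPM with vehicle, at 3.24, 4.62 and 5.84 CPM with 1,25(OH)2D3, at 6.36, 7.30 and 9.98 CPM with Wnt3A and at 3.69, 2.54 and 5.86 CPM with both. Its log2 change was -1.38 with 1,25(OH)2D3 (SE 0.27, adjusted p = 0.00125) and -1.55 with both (SE 0.27, adjusted p = 0.000259), and both groups lay wholly below vehicle. *GBP2*, a guanylate-binding protein, was lower with Wnt3A (-0.52, SE 0.097, adjusted p = 0.000717), going from 69.9, 68.8 and 58.6 CPM with vehicle to 52.0, 43.4 and 42.2 CPM. With 1,25(OH)2D3 *GBP2* was at 75.5, 76.8 and 70.1 CPM, above all vehicle libraries and not called. It was lower with both (-0.35, SE 0.096, adjusted p = 0.00912), which was lost without replicate 3 of the combination (-0.25, adjusted p = 0.0933). *GBP1*, of the same family, was lower with Wnt3A (-0.29, SE 0.074, adjusted p = 0.0113), which was lost without Wnt3A replicate 2 (-0.27, adjusted p = 0.061). *IFI35* was lower with both (-0.30, SE 0.10, adjusted p = 0.0322), which was lost without replicate 1 (-0.23, adjusted p = 0.156) or 2 (-0.27, adjusted p = 0.119) of the combination or vehicle replicate 2 (-0.24, adjusted p = 0.14).

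Class I-like molecules and class II genes had 1 call against vehicle. Of 10 tested class I-like genes, *HFE* alone was called against vehicle, higher with both (0.27, SE 0.097, adjusted p = 0.0461), and that call was lost in 8 of the 12 fits that left out 1 library (adjusted p = 0.0502 to 0.195). With both agents 24% of all tested genes were called in either direction. The class II list passed the count filter with 2 of 9 genes, and *HLA-DRA* had no read in any library, *CD74* 14 reads and *CIITA*, the class II transactivator, 6 reads in all 12 libraries together.

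The genes whose 4 group means lay nearest to those of *TAP1*, by distance between centred log2 CPM over 9476 genes with at least 10 CPM, were *DKC1* (distance 0.00809), *DR1* (0.0108), *RPS19BP1* (0.0135), *FH* (0.0174) and *CCT5* (0.0192). These genes lie on chromosomes X, 1, 22, 1 and 5. The likeness rests on 4 group means and is a description without a test.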

How the data were processed

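The authors extracted polyA+ RNA, sequenced it as single reads of 40 bases, and mapped the reads with ELAND v2e of CASAVA 1.8 to GRCh37. The deposited counts are raw whole numbers per gene; the sources used here give neither the counting program nor its use of strand. Because most low values were multiples of 40, the deposited counts were divided by 40 and rounded, and these are called reads. All 12 columns were used.

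Of 21893 rows, 12216 passed filterByExpr (minimum count 10), all 9 members included. The test was edgeR 4.0.16 (TMM, robust quasi-likelihood, R 4.3.3) in 1 fit of 12 libraries, with no block. P-values were adjusted by Benjamini-Hochberg over all tested genes, with a threshold of 0.05. It was tested on simulated data. Every member was named, and of each pathway list up to 4 genes called against vehicle with the smallest p. 1 result of the lists is not reported here. The members and lists were chosen with earlier results of these data known.

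Library titles number the replicates 1 to 3 in each group, and the study's supplement numbers its 3 independent experiments in the same way. After removal of group means, same-numbered libraries correlated at 0.203 to 0.480 (18 pairs, 7650 genes) and others at -0.370 to 0.00541 (36 pairs). The numbers therefore pair the samples. The main test has no block and leaves this pairing out, also in its intervals and in the fits without 1 library. Only the alternatives with the replicate block use it. Replicates differed by more than counting noise (chi-square per degree of freedom 2.13 to 6.62). Alternatives were the replicate block, DESeq2 1.42.0, fits of each pair of groups alone, other scalings, filters and threshold, the undivided values and each library left out. DESeq2 with the block, and list medians without each library, were chosen after seeing the data. Promoters came from RefSeq (GRCh38.p14), transcript lengths from GENCODE.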

Additional observations from a re-analysis of the deposited data

How the results depend on the processing

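Over 24 alternatives, the 27 changes of members against vehicle were on the same side of the threshold and of 0 in 593 of 648 cases, lost a call in 29, gained one in 13 and changed sign in 13, none of the last with a call. The fall of *TAP1* with both agents was called in all 24. The number of members called with 1,25(OH)2D3 was 2, and 1 under DESeq2 on all libraries, on the pair alone or with the replicate block, under edgeR on the pair alone, and at a threshold of 0.01. With Wnt3A it was 1, and 0 under total-count scaling, both DESeq2 fits without the block and 0.01, but 2 with the replicate block in edgeR or DESeq2. With both it was 3, and 1 under DESeq2 on the pair and at 0.01, but 5 with the replicate block in edgeR. It was 4 with *HLA-E* added under RLE or upper-quartile scaling, 4 with *TAP2* added without the count filter, and 4 under DESeq2 with the block, which lost *HLA-F* and gained *HLA-E* and *TAP2*. DESeq2 on all libraries also gave 3, with *HLA-E* in place of *HLA-F*. Against Wnt3A 0 were called at 0.01. For any difference there were 2, and 6 with the replicate block and 1 at 0.01. Leaving out 1 library gave 0 to 2 members with 1,25(OH)2D3, 0 to 1 with Wnt3A, 1 to 4 with both, 0 to 1 for the combination against Wnt3A, 0 to 1 against 1,25(OH)2D3 (*TAP2*, without replicate 1 of the hormone) and 1 to 3 for any difference. The cause of these shifts was not tested.

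Sign changes were all near 0. The combination against 1,25(OH)2D3 was 0.018, 0.0017 and 0.0055 for *TAP1* and 0.026, 0.0088 and 0.013 for *PSMB9* under total-count scaling, upper-quartile scaling and a mean of at least 50 reads, and 0.0012 and 0.0072 for *PSMB9* under DESeq2 and edgeR on the pair. Leaving out 1 library moved that comparison from -0.059 to 0.057 for *TAP1*, from -0.12 to 0.11 for *PSMB9* and from -0.27 to 0.00043 for *HLA-F*, the combination against Wnt3A from -0.0011 to 0.079 for *PSMB9*, and the interaction of *TAP1* from -0.014 to 0.10. With 1,25(OH)2D3 the ranges were -0.045 to 0.094 for *HLA-B*, -0.0046 to 0.10 for *HLA-C*, -0.10 to 0.0096 for *PSMB8* and -0.18 to 0.061 for *TAP2*. With Wnt3A they were -0.11 to 0.029 for *HLA-B* and -0.068 to 0.025 for *HLA-C*, and with both -0.054 to 0.078 for *HLA-B*, -0.013 to 0.074 for *HLA-C* and -0.051 to 0.00011 for *B2M*.

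Over all genes, calls with 1,25(OH)2D3, Wnt3A and both were 1791, 1013 and 2926, against 2959, 1655 and 4082 with the replicate block, 939, 613 and 1791 under DESeq2 on the pair and 1000, 597 and 1797 at 0.01. The combination gave 1642 against Wnt3A and 1127 against 1,25(OH)2D3, against 2685 and 1812 with the block and 905 and 676 at 0.01, and the test for any difference gave 3614, against 2377 at 0.01. The interaction gave 0, with 18 under the block, 5 under DESeq2 with the block and 9 without the count filter. Depth limits *HLA-F*, at 53 to 94 reads, far more than *B2M*, at 25183 to 30440 reads.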
